A study of Mus musculus with 6 samples.

Results

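Toll-like receptors other than Tlr3 were followed in mouse corneas, together with the co-receptor gene Cd14 and the adaptor gene Myd88. The set holds 10 genes of the 54446 gene rows in the table, taken by symbol: the cell surface receptors Tlr1, Tlr2, Tlr4, Tlr5 and Tlr6, the endosomal receptors Tlr7, Tlr9 and Tlr13, and Cd14 and Myd88. RNA was sequenced from 3 groups of wild type C57BL/6 corneas, all from mice aged 6 weeks, with 2 samples in each group: wounded corneas that received RNase III, wounded corneas without it, and unwounded corneas. The wound was surgical and took away part of the limbus, epithelium and part of the stroma, and RNase III, an enzyme that cuts double-stranded RNA, was injected under the conjunctiva. The labels do not say whether wounded corneas without the enzyme had a control injection, nor whether replicates were different animals or pools, so a p-value here reflects only how far these samples spread, which may be technical.

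Toll-like receptors are membrane proteins that recognise molecules of microbes and of damaged cells. Those at the cell surface bind mostly lipids and proteins, while those in endosomes bind nucleic acids. On binding, all of them except Tlr3 recruit the adaptor MyD88, which assembles IRAK kinases, activates TRAF6 and the kinase TAK1, and so leads to NF-kB and to the induction of cytokine genes. In the cornea, epithelial cells, stromal keratocytes and resident or incoming myeloid cells are known to carry members of the family.

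Levels are given in TPM, which scale a gene's transcripts, corrected for length, to the same total in every library, as the authors deposited them. Since TPM do not record sequencing depth, the depth behind each value is unknown and no counting interval can be given. RNase III replicate 1 had 16751 genes above 0 TPM, the fewest, against 19455 to 21033 in the other libraries. Differences between groups are on the scale log2(TPM + 1), which understates changes of low genes, and were tested with limma over the 14748 genes that had at least 1 TPM in at least 2 samples. Adjusted p-values are Benjamini-Hochberg values over all these genes, and a gene is said to have passed where its adjusted p was under 0.05. Of the 10 members 9 could be tested, and Tlr9 was below the filter. For 2 samples in each group the smallest two-sided p of an exact permutation test is 0.333.

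The libraries carried the genes of corneal epithelium at high levels, with a summed 39312.81 to 51657.37 TPM over 8 epithelial markers in each. They differed in other cell types. The summed level of 12 monocyte and macrophage markers was 227.79 and 374.6 TPM in RNase III corneas, 764.22 and 627.75 TPM in wounded corneas, against 212.38 and 130.96 TPM in unwounded corneas. For 12 neutrophil markers it was 1263.13 and 1436.14 TPM in RNase III corneas, 9109.16 and 495.41 TPM in wounded corneas, against 66.09 and 45.98 TPM in unwounded corneas. Wounded replicate 1 thus stood far above every other library in the sum of neutrophil markers. S100a8 and S100a9 made up most of this sum in every library, at 2050.96 and 6352.41 TPM in wounded replicate 1 and 117.01 and 297.1 TPM in wounded replicate 2. Lens and vessel markers summed to 1996.04 TPM in RNase III replicate 2, against 26.37 to 166.12 TPM in the other libraries. Most of the 1996.04 TPM came from the lens genes Cryaa, Crygs and Cryba4, at 1281.15, 388.04 and 278.69 TPM. The vessel genes Pecam1, Cdh5, Kdr and Vwf had 8.8, 3.97, 2.01 and 0.52 TPM in that library. Cryaa also had 87.88 TPM in wounded replicate 2. Dendritic and B cell markers were low throughout, at 1.39 to 7.24 TPM over 10 genes.

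The make-up of the receptors differed between the groups, while their summed levels overlapped. The sum of the 8 receptors was 22.38 and 35.85 TPM in RNase III corneas, 45.22 and 32.18 TPM in wounded corneas and, in unwounded corneas, 31.66 and 33.45 TPM. Tlr4 and Tlr5 together made up 67.5% and 46.6% of that sum in RNase III corneas, 21.4% and 34.9% in wounded corneas, against 74.8% and 78.6% in unwounded corneas. Tlr2 and Tlr13 together went the other way, at 27.2% and 40.3% in RNase III corneas, 62.3% and 52.2% in wounded corneas, against 17.9% and 16.2% in unwounded corneas. These shares are ratios within a library and do not depend on its scaling. In bulk tissue, fewer cells of a type and less RNA per cell cannot be told apart.

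**Figure D1:**
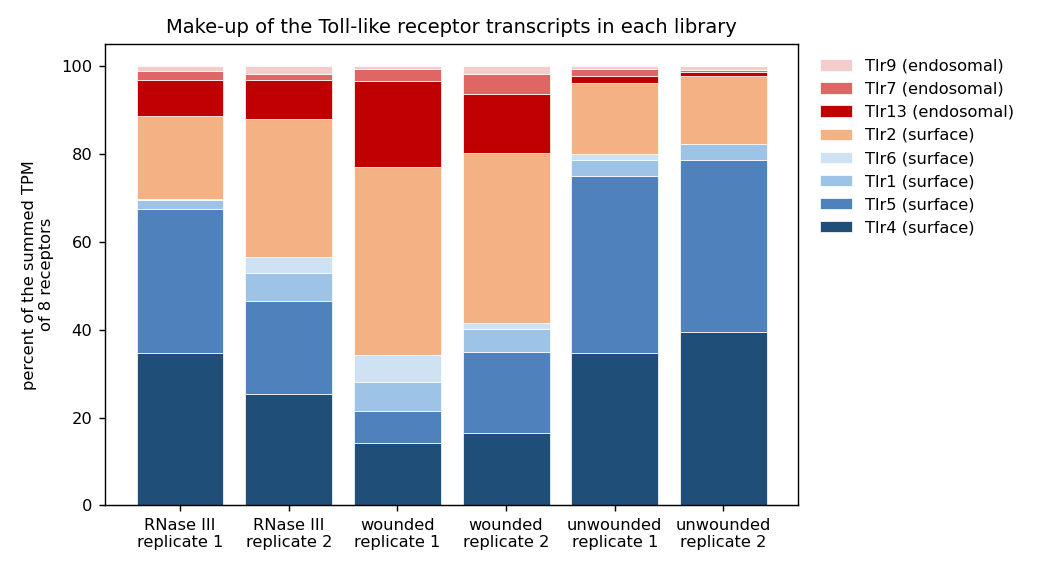
Share of each receptor, in percent of the summed TPM of the 8 receptors, in each of the 6 libraries, with the 5 surface receptors below and the 3 endosomal receptors on top. Tlr4 and Tlr5 fill a small part of the bar in wounded corneas (21.4% and 34.9%) and most of it in unwounded corneas (74.8% and 78.6%).

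In unwounded corneas Myd88 was highest, at 25.0 ± 0.933 TPM (SD, n = 2), above Tlr5 at 12.9 ± 0.24 TPM and Tlr4 at 12.1 ± 1.6 TPM, whose ranges overlapped. Tlr2 stood next at 5.16 ± 0.0283 TPM and Cd14 at 4.51 ± 0.24 TPM. Tlr1 had 1.19 ± 0.0141 TPM, and Tlr13, Tlr7, Tlr9 and Tlr6 lay between 0.06 and 0.54 TPM in single libraries with overlapping ranges. In wounded corneas Cd14 led, followed by Myd88, Tlr2 and Tlr13, and the ranges of Tlr13, Tlr4 and Tlr5 overlapped from one neighbour to the next. In RNase III corneas Cd14 and Myd88 overlapped at the top, and Tlr4, Tlr2 and Tlr5 overlapped below them. In mean level Cd14 was above 92.4% of all tested genes in RNase III corneas and above 97.6% in wounded corneas, against 25.8% in unwounded corneas.

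**Figure D2:**
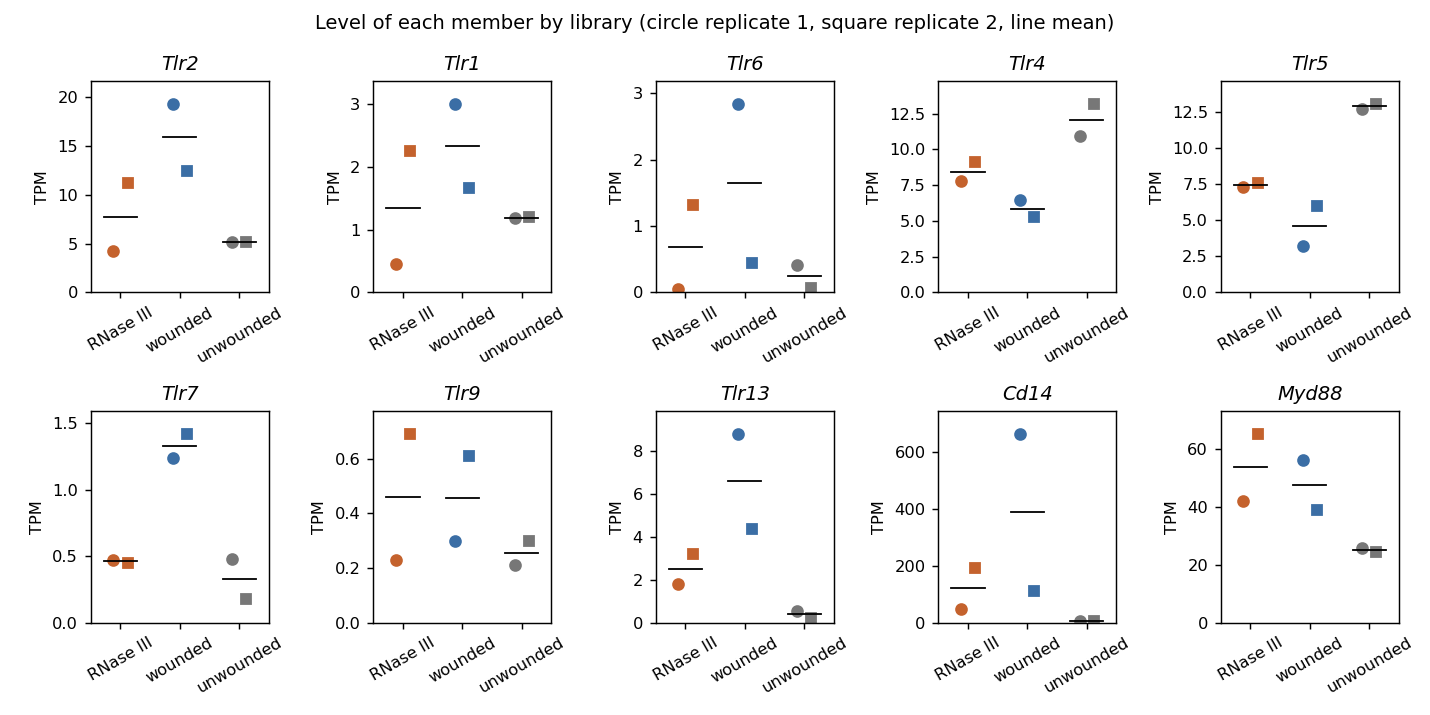
TPM of the 10 members in every library, 1 panel per gene with its own axis from 0, with RNase III corneas on the left, then wounded and unwounded corneas; circles are replicate 1, squares replicate 2 and lines the mean of 2. Tlr4 and Tlr5 are lowest in wounded corneas and highest in unwounded corneas, while both wounded libraries are highest for Tlr13 and Tlr2; Cd14 is high in RNase III and wounded corneas and spreads widely within each.

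Wounded against unwounded corneas asked how the receptors differed after injury. Tlr13 and Cd14 rose and Tlr5 fell. Of the 9 tested members 2 passed upward and 1 downward, where 6.12% of all tested genes passed upward and 9.83% downward. Both wounded libraries lay above both unwounded libraries for 7 of the 9 members, Tlr1, Tlr2, Tlr6, Tlr7, Tlr13, Cd14 and Myd88, where 25.3% of all tested genes did so. They lay below for the other 2, Tlr4 and Tlr5, where 46.8% of all tested genes did so. Over all tested genes the median difference was -0.258, and -0.011 after median-of-ratios scaling. After such scaling 1525 genes passed upward and 1001 downward, in place of 902 and 1450.

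Tlr5, the surface receptor for bacterial flagellin (ENSMUSG00000079164, chromosome 1, 182954788 to 182976044, plus strand, GRCm38), had 3.21 and 5.97 TPM in wounded corneas, against 12.75 and 13.09 TPM in unwounded corneas. Both wounded libraries were well below both unwounded ones. Tlr5 fell by 1.36 on the log2 scale (SE 0.32, limma adjusted p = 0.0385). The call was lost with no filter on low values (adjusted p = 0.0868), without unwounded replicate 1 or 2 (adjusted p = 0.175 and 0.239) and without wounded replicate 1 (adjusted p = 0.166). Its direction was the same in all of these.

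Tlr4, the receptor for lipopolysaccharide (ENSMUSG00000039005, chromosome 4, 66827584 to 66930284, plus strand), had 6.45 and 5.27 TPM in wounded corneas, against 10.94 and 13.2 TPM in unwounded corneas. The groups did not overlap. Its difference of -0.93 (SE 0.27, 95% interval -1.57 to -0.29) did not pass (limma adjusted p = 0.0592), though it did so with only the 2 groups in the fit (adjusted p = 0.0491). With median-of-ratios scaling the difference shrank to -0.67 and did not pass (adjusted p = 0.107). Without single wounded or unwounded libraries it was -1.05 to -0.8. Tlr4 was thus lower in the same libraries as Tlr5. Between the wounded libraries Tlr4 was higher in replicate 1 and Tlr5 in replicate 2. The profiles of this pair over the 6 libraries were the second closest among all pairs of members, though genes outside the set lay much closer to each.

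Tlr2, which binds bacterial lipoproteins as a partner of Tlr1 or Tlr6 (ENSMUSG00000027995, chromosome 3, 83836272 to 83841767, minus-strand gene), had 19.35 and 12.42 TPM in wounded corneas, against 5.14 and 5.18 TPM in unwounded corneas. The groups were far apart. The difference of 1.42 (SE 0.45, 95% interval 0.36 to 2.49) did not pass (limma adjusted p = 0.0722), and it passed when RNase III corneas were left out of the fit (adjusted p = 0.0337) or TPM were rescaled by median of ratios (adjusted p = 0.0466). The ratio of Tlr2 to Tlr4 within a library was 3.0 and 2.36 in wounded corneas, against 0.47 and 0.392 in unwounded corneas, so the more abundant of these receptors was Tlr2 in the first group and Tlr4 in the second. RNase III corneas had ratios of 0.548 and 1.23, on either side of 1.

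The partners of Tlr2 were low. Tlr1 had 3.01 and 1.66 TPM in wounded corneas, against 1.18 and 1.2 TPM in unwounded corneas, a difference of 0.58 (SE 0.47, limma adjusted p = 0.401). Tlr6 had 2.84 and 0.44 TPM in wounded corneas, against 0.42 and 0.06 TPM in unwounded corneas, a difference of 0.94 (SE 0.60, adjusted p = 0.29). For Tlr6 wounded replicate 2 was barely above unwounded replicate 1. Tlr1 and Tlr6 are neighbours on chromosome 5 with 18.5 kb between them (64924679 to 64933563 and 64952031 to 64960097, both on the minus strand).

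Their coding sequences share a run of 229 identical bases, shown here because reads from it cannot be assigned to either gene by sequence. Of all stretches of 50 bases in the coding sequence 19.4% in Tlr1 and 19.2% in Tlr6 occur in the other gene, and none of the other 6 receptors shares such a stretch with another receptor. How the authors' counting split such reads is not given in the sources used here, and the values of Tlr1 and Tlr6 are uncertain to that extent. The first 120 bases of the run, positions 1468 to 1587 of the coding sequence of Tlr1 and 1507 to 1626 of that of Tlr6 in GENCODE release M21, are identical in both:
Tlr1 and Tlr6: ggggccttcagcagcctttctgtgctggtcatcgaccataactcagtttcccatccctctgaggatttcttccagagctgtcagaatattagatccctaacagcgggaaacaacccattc

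Each of the 3 endosomal receptors in the set was under 1 TPM in unwounded corneas, and Tlr13 was the only one of them to pass. Tlr3, an endosomal receptor outside the set, had 13.02 and 7.59 TPM there. Tlr13, which in mice recognises bacterial ribosomal RNA (ENSMUSG00000033777, chromosome X, 106143204 to 106160493, plus strand), had 8.82 and 4.39 TPM in wounded corneas, against 0.54 and 0.24 TPM in unwounded corneas. Every wounded library was above every unwounded library by several times. Tlr13 rose by 2.40 (SE 0.42, limma adjusted p = 0.0215). The call was lost with no filter on low values (adjusted p = 0.069), without unwounded replicate 1 or 2 (adjusted p = 0.115 and 0.183) and without wounded replicate 1 (adjusted p = 0.12), with differences from 1.96 to 2.55.

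Tlr7, a receptor for single-stranded RNA, had 1.24 and 1.42 TPM in wounded corneas, against 0.48 and 0.18 TPM in unwounded corneas. The groups did not overlap, and the difference of 0.82 (SE 0.32, 95% interval 0.05 to 1.58, limma adjusted p = 0.12) did not pass. Tlr9, a receptor for DNA with unmethylated CpG, had 0.3 and 0.61 TPM in wounded corneas, against 0.21 and 0.3 TPM in unwounded corneas, and the groups met at 0.3 TPM. Tested with no filter, its difference was 0.21 (SE 0.21, limma adjusted p = 0.563). The endosomal receptors together made up 22.9% and 20.0% of the receptor sum in wounded corneas, against 3.89% and 2.15% in unwounded corneas. Tlr13 alone made up 19.5% and 13.6% in wounded corneas, against 1.71% and 0.717% in unwounded corneas. Over the 3 endosomal receptors of the set the median difference was 0.82, and over the 5 surface receptors it was 0.58, with Tlr4 and Tlr5 below 0.

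Cd14, which hands lipopolysaccharide to Tlr4 and also serves Tlr2 (ENSMUSG00000051439, chromosome 18), had 662.23 and 112.7 TPM in wounded corneas, against 4.68 and 4.34 TPM in unwounded corneas. The 2 wounded libraries differed from each other several times over, and both were far above the unwounded ones. Cd14 rose by 5.64 (SE 0.90, limma adjusted p = 0.019). The ratio of Cd14 to Tlr4 was 103.0 and 21.4 in wounded corneas, against 0.428 and 0.329 in unwounded corneas. Without wounded replicate 1, the library with the most neutrophil transcripts, Cd14 differed by 4.37 and did not pass (adjusted p = 0.0857). The call was also lost without unwounded replicate 1 or 2 (adjusted p = 0.108 and 0.149) and with no filter (adjusted p = 0.0633).

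Myd88, the shared adaptor (ENSMUSG00000032508, chromosome 9, 119335934 to 119341411, minus-strand gene), had 56.11 and 38.76 TPM in wounded corneas, against 25.67 and 24.35 TPM in unwounded corneas. The groups did not overlap. Its difference of 0.87 (SE 0.28, 95% interval 0.19 to 1.55) did not pass (limma adjusted p = 0.0783) and passed with median-of-ratios scaling, at 1.16 (adjusted p = 0.0454).

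Most of the tested macrophage and neutrophil markers were higher after the wound, as were most members. Of 12 macrophage markers 7 passed upward and none downward in wounded against unwounded corneas, among them Ly6c2, Fcgr1, Ccr2 and Lyz2, and none of the 12 was at 0 in any library. Over all tested genes 6.12% passed upward and 9.83% downward. Adgre1, Csf1r, Mrc1, C1qa and Cx3cr1 did not pass. Cx3cr1 went the other way, at 0.59 and 1.0 TPM in wounded corneas, against 1.7 and 1.52 TPM in unwounded corneas. Of 12 neutrophil markers 8 could be tested and 5 passed upward, among them S100a8, Clec4d, S100a9 and Csf3r, while 6 of the 12 were at 0 in each unwounded library. Cxcr2, Retnlg and Ly6g did not pass (limma adjusted p = 0.0649, 0.0686 and 0.258), and Ly6g was at 0 in wounded replicate 2. Markers of the cornea's own cells gave calls as well: Pax6 passed downward among 8 epithelial markers, where Krt14 passed upward, and Kera, Aldh1a1 and Ogn passed downward among 8 keratocyte markers. Cryba4 and Bfsp1 passed upward among 8 lens and vessel markers, and Mcpt4 passed downward among 4 tested of 9 mast and T cell markers. Of the 10 dendritic and B cell markers, of which Cd79b and Cd209a were the most abundant, 1 (Cd79b) could be tested, and it did not pass (adjusted p = 0.154). The part of these cells in the receptor differences was not tested.

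**Figure D3:**
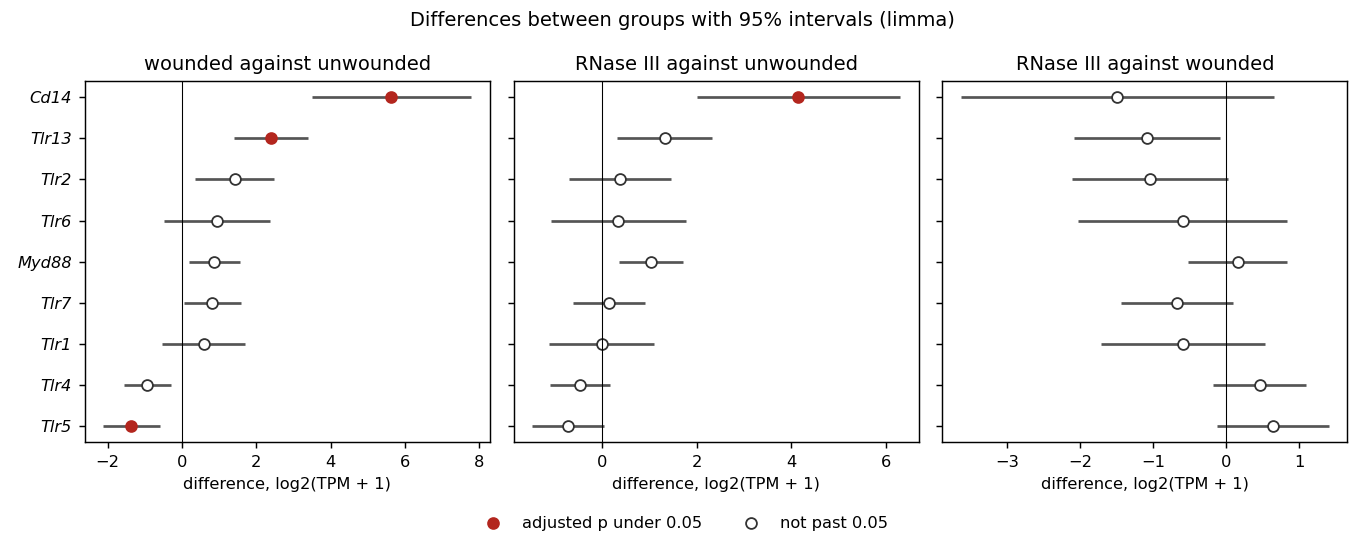
Differences of the 9 tested members on the log2(TPM + 1) scale with 95% intervals from limma, for each pair of groups; filled points have an adjusted p under 0.05. In wounded against unwounded corneas Cd14 and Tlr13 lie to the right and Tlr5 to the left, and in RNase III against wounded corneas no point is filled.

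The promoter regions of 7 of the 10 members are in RefSeq's table (GRCm38.p6). Those of Tlr13 and Tlr5, which passed in opposite directions, are shown. That of Tlr2, which did not pass, is shown as well and is the only member window with an NF-kB match. Bases inside annotated exons are left out, so the stretches end where the first exon of any annotated transcript begins. Capitals mark matches, on either strand, to the NF-kB consensus and to GAGGAA, the core bound by the myeloid factor PU.1. TGANTCA, the AP-1 motif, was searched as well, with no match in these 3 windows.
Tlr13, chrX:106143025-106143203, plus strand: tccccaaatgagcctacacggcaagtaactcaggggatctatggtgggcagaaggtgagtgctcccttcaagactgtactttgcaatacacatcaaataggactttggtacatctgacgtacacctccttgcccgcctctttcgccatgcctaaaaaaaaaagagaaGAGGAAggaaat
Tlr5, chr1:182954538-182954787, plus strand: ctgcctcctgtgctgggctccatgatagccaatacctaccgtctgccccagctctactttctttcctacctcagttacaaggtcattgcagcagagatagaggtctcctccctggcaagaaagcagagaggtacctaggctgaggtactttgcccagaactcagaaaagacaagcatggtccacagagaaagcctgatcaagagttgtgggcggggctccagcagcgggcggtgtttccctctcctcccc
Tlr2, chr3:83841768-83841858, minus strand: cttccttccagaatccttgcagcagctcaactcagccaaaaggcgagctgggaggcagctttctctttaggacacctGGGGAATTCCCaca

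In Tlr2 the capitals cover overlapping matches to the NF-kB consensus, the first starting at position -173 from RefSeq's start site, and a further match at -8 lies outside the printed stretch. Among all 32851 promoter windows of 300 bases 8.46% held the NF-kB consensus, 28.3% GAGGAA and 7.81% TGANTCA. Of the 9 windows of the members 1 held the NF-kB consensus and 3 held GAGGAA. A match describes letters in the window and is not a site of binding.

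RNase III against wounded corneas asked how wounded tissue differed after the enzyme. None of the 9 tested members passed, as no gene of the 14748 did (0% of them; 1838 had an unadjusted p under 0.05). For Tlr2, Tlr7 and Tlr13, 3 of the 9 members, each RNase III value was under each wounded value, where 14.3% of all tested genes did so. For Tlr4 and Tlr5, 2 of the 9, each was higher, where 25.9% of all tested genes did so. This comparison shares its wounded libraries with the one above.

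Tlr13 had 1.82 and 3.21 TPM in RNase III corneas and 8.82 and 4.39 TPM in wounded corneas, with no overlap. Its difference was -1.08 (SE 0.42, 95% interval -2.08 to -0.08, limma adjusted p = 0.376), the only member with an unadjusted p under 0.05. Tlr7 had 0.47 and 0.45 TPM in RNase III corneas, which agreed closely with each other, and 1.24 and 1.42 TPM in wounded corneas, a difference of -0.67 (SE 0.32, adjusted p = 0.443). Tlr9 had 0.23 and 0.69 TPM in RNase III corneas and 0.3 and 0.61 TPM in wounded corneas, with overlap.

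Tlr2 had 4.26 and 11.24 TPM in RNase III corneas and 19.35 and 12.42 TPM in wounded corneas. The gap between the nearest libraries was small, and RNase III replicate 1 lay below both unwounded libraries too. The difference of Tlr2 was -1.04 (SE 0.45, 95% interval -2.11 to 0.02, limma adjusted p = 0.407), at -0.43 without RNase III replicate 1 and -1.65 without RNase III replicate 2. Tlr1 had 0.45 and 2.25 TPM in RNase III corneas and 3.01 and 1.66 TPM in wounded corneas, and Tlr6 had 0.05 and 1.31 TPM against 2.84 and 0.44 TPM. Both overlapped between groups, and both were lowest of all libraries in RNase III replicate 1. That library also had the fewest genes above 0 TPM, and the bearing of this on its low values was not tested.

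Tlr4 had 7.78 and 9.11 TPM in RNase III corneas and 6.45 and 5.27 TPM in wounded corneas, a difference of 0.46 (SE 0.27, 95% interval -0.18 to 1.10, limma adjusted p = 0.509). Tlr5 had 7.32 and 7.59 TPM in RNase III corneas and 3.21 and 5.97 TPM in wounded corneas, a difference of 0.64 (SE 0.32, 95% interval -0.12 to 1.41, adjusted p = 0.461). For both genes the RNase III values lay between those of the other groups. The share of Tlr7, Tlr9 and Tlr13 in the receptor sum was likewise 11.3% and 12.1% in RNase III corneas, against 22.9% and 20.0% in wounded corneas. Tlr3, which is endosomal but outside that sum, had 23.72 and 12.63 TPM in RNase III corneas and 6.91 and 11.06 TPM in wounded corneas.

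Cd14 had 49.06 and 191.17 TPM in RNase III corneas and 662.23 and 112.7 TPM in wounded corneas. The groups overlapped, and each pair of replicates differed several times over. The difference was -1.49 (SE 0.90, 95% interval -3.63 to 0.66, limma adjusted p = 0.53), an interval that is wide and holds 0. Cd14 differed by -0.21 without wounded replicate 1, -2.76 without wounded replicate 2, -0.51 without RNase III replicate 1 and -2.46 without RNase III replicate 2. Myd88 had 42.0 and 65.04 TPM in RNase III corneas and 56.11 and 38.76 TPM in wounded corneas, with overlap and a difference of 0.16 (SE 0.28, adjusted p = 0.831). Myeloid markers stood beside these values: of the 12 macrophage markers 10 had lower values in RNase III than in wounded corneas with no overlap, as did 6 of 8 keratocyte markers and 0 of the 12 neutrophil markers. Their part in the receptor values was not tested.

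RNase III against unwounded corneas asked what remained different from intact tissue. Cd14 rose and was the 1 member of 9 to pass, where 9.30% of all tested genes passed, 4.72% upward and 4.58% downward. Its 49.06 and 191.17 TPM in RNase III corneas stood against 4.68 and 4.34 TPM in unwounded corneas, a difference of 4.15 (SE 0.90, limma adjusted p = 0.0412). That call was lost with no filter (adjusted p = 0.106), without a mean-variance trend (adjusted p = 0.0536), without unwounded replicate 1 or 2 (adjusted p = 0.158 and 0.225), without RNase III replicate 1 (adjusted p = 0.0571) and without RNase III replicate 2 (adjusted p = 0.107), while the difference stayed between 3.18 and 5.12. Of 8 tested neutrophil markers 4 passed upward in this comparison, of 12 macrophage markers 1 (Cd68), and 6 of 8 keratocyte markers passed downward. The macrophage list had a median of -0.1, with 6 markers above 0 and 6 below. The part of these cells in the Cd14 difference was not tested.

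Both RNase III libraries lay above both unwounded libraries for Tlr13, Cd14 and Myd88, 3 of 9 tested members, where 26.3% of all tested genes did so. They lay below for Tlr4 and Tlr5, 2 of 9, where 39.7% did so. Tlr13 had 1.82 and 3.21 TPM in RNase III corneas against 0.54 and 0.24 TPM in unwounded corneas, a difference of 1.32 (SE 0.42, limma adjusted p = 0.0841). Myd88 had 42.0 and 65.04 TPM against 25.67 and 24.35 TPM, a difference of 1.04 (SE 0.28, adjusted p = 0.0645), which passed with median-of-ratios scaling (1.20, adjusted p = 0.0476). Tlr5 had 7.32 and 7.59 TPM against 12.75 and 13.09 TPM, a difference of -0.72 (SE 0.32, adjusted p = 0.163), and Tlr4 had -0.47 (SE 0.27, adjusted p = 0.257). Tlr1, Tlr2, Tlr6 and Tlr7 differed by -0.01, 0.38, 0.34 and 0.14, all with overlapping libraries.

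Around the receptors, the genes that MyD88 signalling is known to induce mostly rose, while most adaptors and kinases of the pathway did not pass. Of 16 induced genes 15 passed the filter and 11 passed the test upward in wounded against unwounded corneas, where 6.12% of all tested genes did so. The list had a median difference of 5.60, beside -0.26 over all tested genes. This list holds cytokine genes that were already known to be high in these samples, so its direction is not independent evidence. Il1b, the interleukin 1 beta gene, had 1008.69 and 164.43 TPM in wounded corneas, against 0.74 and 0.58 TPM in unwounded corneas. Ccl4, a chemokine, had 478.24 and 51.66 TPM against 0.63 and 0.36 TPM, and Lcn2, which encodes a protein that withholds iron from bacteria, 1591.95 and 209.59 TPM against 6.32 and 5.52 TPM. Saa3, an acute-phase gene, had 2369.35 and 302.7 TPM in wounded corneas and was listed at 0 in both unwounded libraries. Wounded replicate 1 was the higher of the pair for all 4 genes. The list had 2 calls without unwounded replicate 1 or 2, and 7 with no filter on low values. The other list members that passed were Il6, Cxcl1, Cxcl2, Ccl3, Ptgs2, Acod1 and Csf3, and Tnf, Il1a, Nfkbiz and Nos2 did not pass.

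Adaptors and kinases gave 1 call among 16 tested genes, downward, where 9.83% of all tested genes passed downward. Tirap, which brings MyD88 to Tlr2 and Tlr4 and is named because it alone passed, had 7.91 and 8.02 TPM in wounded corneas, against 20.89 and 20.79 TPM in unwounded corneas. The replicates almost coincided, and Tirap fell by 1.28 (SE 0.23, limma adjusted p = 0.0217). RNase III corneas had 14.84 and 17.73 TPM of Tirap, between the other groups. Tirap no longer passed without wounded replicate 1 (adjusted p = 0.107), unwounded replicate 1 (0.143) or unwounded replicate 2 (0.198), at differences of -1.28 or -1.29. The most abundant genes of this list, Ube2n and Ube2v1, which form an enzyme that builds ubiquitin chains with TRAF6, differed by 0.15 and 0.27 (adjusted p = 0.558 and 0.361). The median of the list was -0.37, near the -0.26 of all tested genes.

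Inhibitors of the pathway went both ways. Of 14 tested genes 3 passed upward and 1 downward, where 6.12% and 9.83% of all tested genes did so. The median of the list was 0.69. Il1rl1, the receptor for interleukin 33, had 57.45 and 17.41 TPM in wounded corneas, against 0.17 and 0.12 TPM in unwounded corneas, a rise of 4.84 (SE 0.53, limma adjusted p = 0.00907). Traf1 and Socs1 rose by 2.75 and 1.79, and Cyld, which removes ubiquitin chains, fell by 1.25. The calls of Il1rl1, Traf1, Socs1 and Cyld were lost without unwounded replicate 1 (adjusted p = 0.0775, 0.104, 0.117 and 0.132) or unwounded replicate 2 (0.0971, 0.155, 0.186 and 0.211). Those of Traf1, Socs1 and Cyld were also lost without wounded replicate 1 (0.108, 0.117 and 0.117) and with no filter (0.0603, 0.0667 and 0.0519). Irak3, a kinase-like inhibitor known from myeloid cells and named after its values were seen, had 7.25 and 2.88 TPM in wounded corneas, against 1.54 and 1.34 TPM in unwounded corneas and did not pass (adjusted p = 0.12).

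Among co-receptors, chaperones and proteases 4 of 13 tested genes passed upward and 1 downward, where 6.12% and 9.83% of all tested genes did so. The median of the list was 0.64. Ctss and Ctsl, cathepsins that cut endosomal receptors, rose by 2.04 (limma adjusted p = 0.0104) and 0.87 (adjusted p = 0.0403), and Hsp90b1, the chaperone that folds most of the family, rose by 1.02. Lgmn, another endosomal protease, was the fourth upward call, and Tmed7, which carries Tlr4 to the cell surface, fell by 1.14. None of the calls of Ctss, Ctsl, Hsp90b1 and Tmed7 held without unwounded replicate 1 (adjusted p = 0.0914, 0.204, 0.139 and 0.12), unwounded replicate 2 (0.121, 0.251, 0.186 and 0.194) or wounded replicate 1 (0.0614, 0.17, 0.0834 and 0.0945). That of Ctsl was also lost with no filter (0.104) and without a mean-variance trend (0.0593). Ly96, the subunit that completes the lipopolysaccharide receptor, had 20.41 and 17.93 TPM in wounded corneas, against 23.87 and 22.87 TPM in unwounded corneas and did not pass (limma adjusted p = 0.574). Unc93b1, which escorts endosomal receptors, had 20.5 and 24.61 TPM against 25.84 and 26.31 TPM and did not pass (adjusted p = 0.671). Lgmn, Ly96 and Unc93b1 fall outside the naming rule and were added after their values were seen.

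In RNase III against unwounded corneas 11 of 15 induced genes again passed upward, with a median of 4.38. So did 0 of 16 adaptors and kinases, 2 of 14 inhibitors (Il1rl1 and Dusp1) and 1 of 13 co-receptors, chaperones and proteases (Hsp90b1). None of these lists had a downward call. Over all tested genes 4.72% passed upward and 4.58% downward. With no filter, or without unwounded replicate 1 or 2, the inhibitors had 0 calls and so did the co-receptors, chaperones and proteases. The induced genes had 1 call with no filter or without unwounded replicate 1 or 2, and 5 without RNase III replicate 1 or 2. In RNase III against wounded corneas none of the 4 lists had a call, and the medians were -1.02 for induced genes, 0.35 for adaptors and kinases, -0.05 for inhibitors and -0.26 for co-receptors, chaperones and proteases, beside 0.09 over all tested genes.

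**Figure D4:**
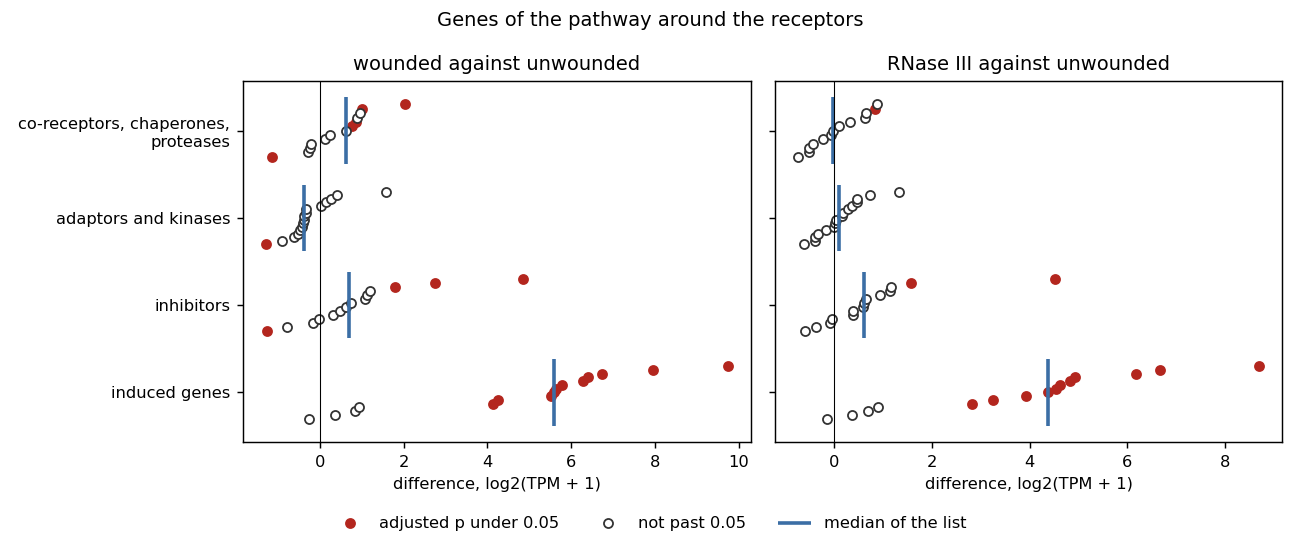
Differences on the log2(TPM + 1) scale for the tested genes of 4 lists around the receptors, in wounded and in RNase III against unwounded corneas; each point is a gene, filled where its adjusted p is under 0.05, and blue lines are list medians. Induced genes lie far to the right (medians 5.60 and 4.38), and the other lists have medians from -0.37 to 0.69 with single genes far from them, such as Il1rl1 at 4.84 after the wound.

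Of the remaining genes of the receptor family, Tlr3 encodes the endosomal sensor of double-stranded RNA. It had 23.72 and 12.63 TPM in RNase III corneas, 6.91 and 11.06 TPM in wounded corneas, against 13.02 and 7.59 TPM in unwounded corneas. This level is close to that of Tlr4 and Tlr5. The receptor sums and endosomal shares above leave Tlr3 out. Tlr8, Tlr11 and Tlr12 were at or below 0.65 TPM in every library and did not pass the filter.

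Profiles over the 6 libraries were compared by the root mean square distance of centred log2(TPM + 1) values, among 11910 genes with a mean of at least 2 TPM. Nearest to Tlr13 were Fcgr3 (distance 0.11), Has1 (0.129) and Arhgap45 (0.166), and nearest to Tlr2 were Arrb2 (0.125), Fyb (0.138) and Cyba (0.142). Fcgr3, an immunoglobulin receptor gene, had 15.78 and 25.78 TPM in RNase III corneas, 66.44 and 28.35 TPM in wounded corneas, against 7.8 and 6.15 TPM in unwounded corneas, the same order of libraries as Tlr13. Nearest to Cd14 were Acod1 (0.155), Lilr4b (0.251) and Mmp12 (0.322). Tlr4 was matched by Sorl1, Bloc1s6 and Dlg1 (0.05 to 0.064), Tlr5 by Btbd3, Def8 and Copg2 (0.068 to 0.071), and Myd88 by Slc35f6, Arhgdia and Kdm6b (0.035 to 0.07). Tlr1 was matched by Ripor1, Eml2 and Ccdc80, Tlr6 by Crem, Slc39a14 and Sh2d3c, and Tlr7 by Magohb, Psmg4 and Timm10b. Among the members themselves the closest pairs were Tlr1 with Tlr6 (0.318), Tlr4 with Tlr5 (0.342) and Tlr2 with Tlr1 or Tlr6 (0.346 each). Tlr1 and Tlr6 share coding sequence and were low, and the bearing of this on their distance was not tested. All distances share the same 6 libraries and are descriptions.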

How the data were processed

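The authors deposited 1 table of TPM values with a column for each of the 6 samples. The tools STAR, RSEM and DESeq2 and the mm10 build appear, without role or version, among the submitters' processing notes. Which annotation and filters they used is not given in the sources used here. Symbols were found for 54409 of 54446 identifiers. Coordinates come from GENCODE release M21 on GRCm38.

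TPM were log2-transformed after adding 1. A model of group means over all 6 samples was fitted in limma 3.58.1 (R 4.3.3) with a mean-variance trend and 3 residual degrees of freedom. The fit was first run on simulated data. There known changes were placed only in genes with higher mean levels than any of the receptors, so the run does not cover calls at receptor levels. Groups and replicate numbers come from the labels.

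Members and lists were chosen with earlier results of these data known. All members are named, and of each list up to 4 genes past the threshold after the wound with the largest differences, or the 2 most abundant where fewer than 2 passed. Genes named outside this rule are marked or complete a count. The 3 nearest profiles of each tested member leave out predicted gene models. Each result was recomputed with 0.1 as pseudocount, without the filter, with median-of-ratios scaling, with a replicate block, with just the pair of groups compared, without the trend, and without each library in turn.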

Additional observations from a re-analysis of the deposited data

How the results depend on the processing

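Leaving out single libraries changed the counts most. In wounded against unwounded corneas the genes called then ranged from 25 to 3242 and the members called from 0 to 5, and in RNase III against unwounded corneas from 17 to 1283 and from 0 to 1. The low counts came without unwounded replicate 1 or 2 and, for the wound, also without wounded replicate 1 (71 genes); fewer samples then carry the fit, and a group left with 1 library is assumed to vary like the others. With no filter 444 and 69 genes and 0 and 0 members were called in these comparisons. Scaling gave 5 and 2 members, only the 2 groups 5 members for the wound, and no trend or the replicate block 0 for RNase III against unwounded corneas; the cause was not tested. In RNase III against wounded corneas 1 gene was called with a pseudocount of 0.1, 0 to 1 without single libraries and no member under any alternative.

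The median of the surface receptors for RNase III against wounded corneas was -1.04 with a pseudocount of 0.1 and -1.16 to 0.11 without single libraries, and against unwounded corneas -0.57 to 0.57. The endosomal median with a pseudocount of 0.1 was 1.82 for the wound, -1.33 for RNase III against wounded and 0.54 against unwounded corneas, and without single libraries 0.65 to 0.98 for the wound and 0.15 to 0.43 for RNase III against unwounded corneas.

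Of 324 recomputed differences of the 9 tested members 288 kept direction and side of the threshold, 19 lost a call, 9 gained one and 8 changed sign. Most of the 324 had no call to lose. The wound calls of Tlr5, Tlr13 and Cd14 were each lost under 4 alternatives and kept under 8. The call of Cd14 in RNase III against unwounded corneas was lost under 7 and kept under 5. Tlr9, not tested, differed by -0.03 in RNase III against unwounded corneas without RNase III replicate 2, in place of 0.20. In RNase III against wounded corneas, leaving out single libraries gave -0.15 to 0.47 for Myd88 (below 0 without wounded replicate 2, -0.10, or RNase III replicate 2, -0.15) and -1.3 to 0.11 for Tlr6 (above 0 without wounded replicate 1). In RNase III against unwounded corneas it gave -0.59 to 0.57 for Tlr1 (above 0 without RNase III replicate 1, and 0.06 with scaling), -0.23 to 0.99 for Tlr2 and -0.22 to 0.91 for Tlr6 (both below 0 without RNase III replicate 2), and -0.02 to 0.31 for Tlr7 (below 0 without unwounded replicate 2). Alternatives for the pathway lists were added after the data were seen. There Tlr3 ranged from -0.52 to 0.19 for the wound, above 0 without unwounded replicate 1 (0.19) or wounded replicate 1 (0.14), and was 0.09 with scaling.

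The labels do not say whether replicate numbers pair the samples. Deviations of same-numbered libraries had correlations of 0.15, 0.10 and -0.05 between the groups. Weak correlations from 2 libraries a group cannot decide whether samples were paired. With the replicate block the difference of Cd14 in RNase III against unwounded corneas was 4.15 with adjusted p = 0.0572. No other member's call changed with the block, the wound call of Ctsl was lost with it (adjusted p = 0.0546), and the inhibitors had 1 call in place of 2 in RNase III against unwounded corneas. TPM keeps no depth, so differences among genes near 1 TPM cannot be given a detection limit.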
